A study of Rattus norvegicus with 17 samples.

Results

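Red blood cell genes were followed in the fetal rat testis as a measure of the fetal blood in each tissue sample. The set was defined by name as 9 genes: Alas2, Slc4a1, Hbb, Hba-a1, Hba-a2, Ahsp, Hemgn, Epb42 and Klf1. Of these, 7 matched a gene symbol in the count table, out of 30560 genes, and Hbb and Hba-a1 were not analysed here. The study sequenced polyA-selected RNA of testes from wild type Sprague Dawley fetuses, in 17 libraries. Dams were gavaged daily with dipentyl phthalate (DPeP), a phthalate ester used as a plasticizer, or with its corn oil vehicle, at 2.5 mL/kg from gestational day 17 to 21. The testes were collected on gestational day 21. The vehicle group and the groups dosed at 1, 11 and 100 mg/kg/d had 3 libraries each, and the group dosed at 300 mg/kg/d had 5. Each library held either 1 testis or a pool of 2 from 1 litter, and the sources used here do not say whether any 2 libraries share a dam. The p values below therefore measure the spread between these samples only.

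Red blood cells carry oxygen bound to hemoglobin, a tetramer of alpha and beta globin chains that each hold a heme group. Their precursors mature in the fetal liver at this stage of gestation and enter the circulation, where young red cells still contain globin mRNA after losing their nucleus. None of these genes is a marker of Leydig, Sertoli or germ cells, so red cells in the vessels or interstitium of the organ are the usual source of such RNA in a testis sample. In bulk RNA, fewer red cells and less RNA per red cell cannot be told apart.

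The members differ in the letters before their start sites. Promoters in RefSeq (build GRCr8) were found for 7 of the 9 named genes and for 5 of the 7 measured ones, and the 250 bases before the start were searched on both strands for the letters GATAA, the core that GATA factors recognise, and the letters CACCC, the core that KLF1 recognises. A match on the reverse strand reads as TTATC for the first motif and as GGGTG for the second, and the motifs do not overlap. The following sequences are shown because they belong to the measured alpha globin gene, its unmatched twin, the beta globin gene described beside them, the heme enzyme and the transcription factor among the members. Capitals mark the GATAA and CACCC matches.
Hba-a2: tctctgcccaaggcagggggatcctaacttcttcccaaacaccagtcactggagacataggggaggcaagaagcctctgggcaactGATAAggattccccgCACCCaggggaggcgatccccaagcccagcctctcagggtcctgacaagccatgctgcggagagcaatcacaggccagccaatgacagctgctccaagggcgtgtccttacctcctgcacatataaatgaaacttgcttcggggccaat
Hba-a1: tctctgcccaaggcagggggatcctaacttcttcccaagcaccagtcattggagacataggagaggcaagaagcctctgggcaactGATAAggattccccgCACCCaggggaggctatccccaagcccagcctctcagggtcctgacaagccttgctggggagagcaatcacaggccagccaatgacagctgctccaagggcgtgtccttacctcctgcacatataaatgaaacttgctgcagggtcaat
Hbb-b1: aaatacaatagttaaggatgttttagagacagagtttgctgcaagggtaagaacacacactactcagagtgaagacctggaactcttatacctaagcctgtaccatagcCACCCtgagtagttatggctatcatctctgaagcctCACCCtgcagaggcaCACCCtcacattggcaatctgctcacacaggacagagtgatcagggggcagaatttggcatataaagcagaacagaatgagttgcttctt
Alas2: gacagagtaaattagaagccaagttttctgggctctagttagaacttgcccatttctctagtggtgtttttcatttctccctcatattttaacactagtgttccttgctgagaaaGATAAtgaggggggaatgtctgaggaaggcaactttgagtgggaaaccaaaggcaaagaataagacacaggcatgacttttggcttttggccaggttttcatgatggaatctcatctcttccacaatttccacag
Klf1: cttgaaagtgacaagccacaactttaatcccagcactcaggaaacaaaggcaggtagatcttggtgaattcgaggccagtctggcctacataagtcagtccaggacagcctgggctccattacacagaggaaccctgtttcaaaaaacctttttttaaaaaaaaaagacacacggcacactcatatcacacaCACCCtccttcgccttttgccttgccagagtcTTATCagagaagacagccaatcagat

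These stretches lie at chr10:15829139-15829388 (minus strand), chr10:15842581-15842830 (minus), chr1:167643521-167643770 (minus), chrX:22895200-22895449 (plus) and chr19:40158652-40158901 (minus). Hba-a2 and Hba-a1 had 241 of 250 bases in common, 96.4%. Both held 1 GATAA at 164 bases and 1 CACCC at 149 bases before the start. The Klf1 stretch held the reverse GATAA letters at 26 bases and CACCC at 58 bases, and that of Alas2 held 1 GATAA at 135 bases and no CACCC. Hbb-b1 held 3 CACCC matches, at 141, 105 and 90 bases, and no GATAA. Epb42 held neither motif, and Hemgn has 2 listed starts, of which 1 held 2 GATAA matches and the other held neither. Among 33469 rat promoters of the same length, 23.5% held GATAA, 49.2% held CACCC and 9.59% held both, so these short motifs are common and a match is only a description of the letters.

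Depth allowed the rarest members to be counted in every library. Libraries held 14282274 to 20323488 counts on genes. Testis markers were present throughout: the summed level of 11 of them, among them Amh of Sertoli cells and Cyp17a1 of Leydig cells, ran from 3529 to 5515 CPM (each gene's count as a share of its library size, with the size scaled by TMM factors). Among these 11, Cyp17a1 (log2 fold change -1.24), Insl3 (-1.93) and Star (-1.47) of Leydig cells fell at 100 mg/kg/d and Dazl of germ cells rose (0.82), and at 300 mg/kg/d the same Leydig genes fell (-2.12, -2.36 and -2.09) and Amh (0.83) and Dhh (0.54) of Sertoli cells rose. All 6 were called on the slope as well, where the calls of Dazl and Dhh were lost in 6 and 7 of 26 alternatives. Both were lost with the sample code as a factor. The Leydig calls held in all alternatives. At the single doses the call of Dazl was lost in 5 of 16 (among them without vehicle replicate 01 or dosed replicate 05 or 18). That of Amh was lost in 4 of 18 (without vehicle replicate 08 or 15, dosed replicate 14, or with the sample code) and that of Dhh in 5 of 18 (without vehicle replicate 01 or 08, dosed replicate 13 or 14, or with the code). The globin genes together took 0.257% of gene counts in 11 mg/kg/d replicate 17 and 1.59% in 100 mg/kg/d replicate 18. In the last-named library and in replicate 05 at the same dose, 7.76% and 9.05% of counts came from the mitochondrial genome. The other 15 held 4.35% to 6.16%. Log2 fold changes of some genes at 100 mg/kg/d are therefore also given without both. The averaged level of the members and the medians of the gene lists are given only with both.

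Hba-a2 was one of the most abundant mRNAs of these testes. Its mean over 17 libraries, 7161 CPM, ranked 3rd among all genes, and Hbb-b1, the beta globin gene that is no member, ranked 14th with 2283 CPM. Alas2 followed at 118 CPM, Slc4a1 at 42.1, Ahsp at 11.98, Hemgn at 7.67, Klf1 at 2.81 and Epb42 at 2.64. Per length (TPM, computed from counts and summed exon length), the order of levels was Hba-a2 at 5901 TPM, Alas2 at 143, Ahsp at 34.0, Slc4a1 at 21.99, Hemgn at 6.74, Klf1 at 3.46 and Epb42 at 2.45. By mean TPM Hba-a2 ranked 10th and Hbb-b1 67th among all genes. The length of the Hba-a2 model enters its TPM: the model spans 30578 bases on chromosome 10 (15307815 to 15338392, build mRatBN7.2, minus strand) with 2860 exon bases, and encloses Hba-a3 and Hbq1b, with which it shares no exon base. Alpha globin copies are nearly identical, so how reads were divided among them is uncertain.

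**Figure D1:**
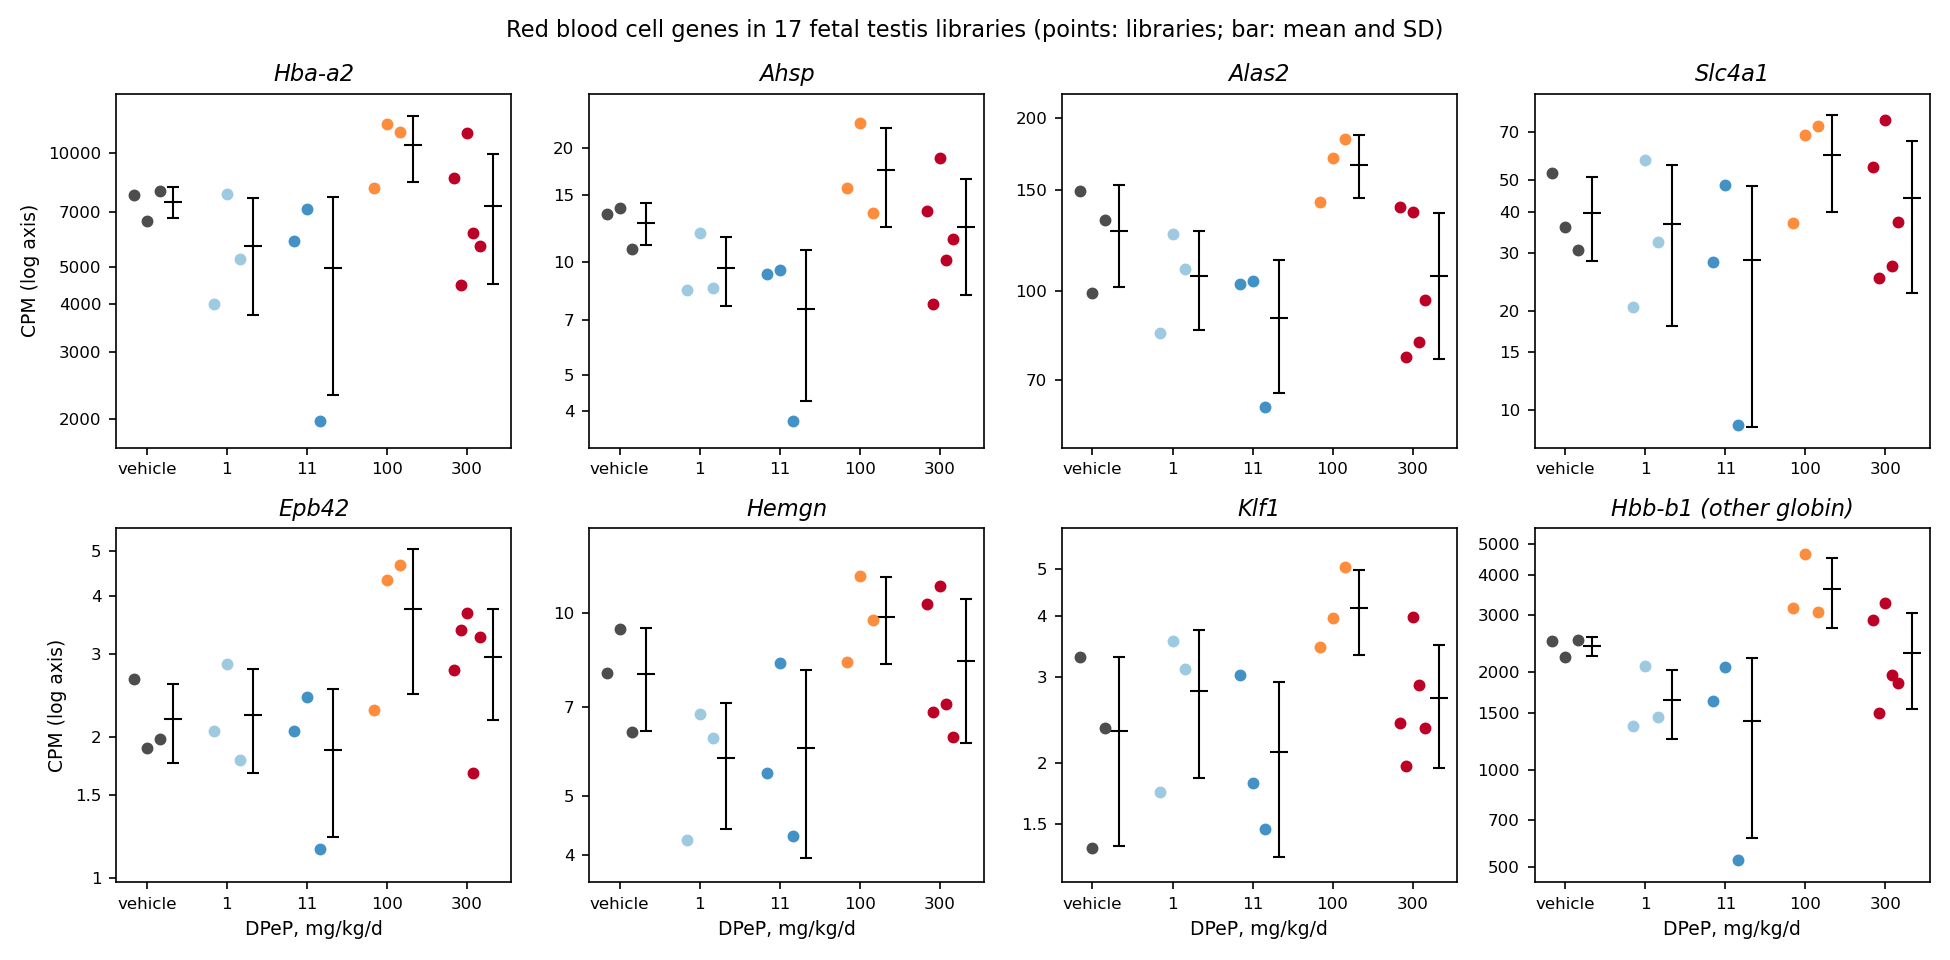
CPM (log axis) of the 7 red blood cell genes and of Hbb-b1 by DPeP dose, in 17 libraries; points are libraries and the bar beside them is the group mean with its SD. The mean at 100 mg/kg/d was the highest of the 5 groups for all 7 members. Libraries at 11 and 100 mg/kg/d overlapped for Slc4a1 and Epb42 only. The other neighbouring groups overlapped, except vehicle and 1 mg/kg/d for Hbb-b1 and 100 and 300 mg/kg/d for Alas2.

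Hba-a2 (ENSRNOG00000029886) encodes an alpha globin chain of hemoglobin. In vehicle replicates 01, 08 and 15 it stood at 7748, 6609 and 7923 CPM. At 1 mg/kg/d it was 3996, 7784 and 5240 CPM in replicates 02, 09 and 10, and at 11 mg/kg/d 5868, 7092 and 1972 CPM in replicates 03, 16 and 17. Vehicle was the tightest of these groups, and the last of these libraries was the lowest of all 17. Replicates 05, 18 and 19, dosed at 100 mg/kg/d, held 8089, 11917 and 11348 CPM, so in CPM every one lay above every vehicle library. Per length, replicate 05 held 5367 TPM, below the vehicle libraries at 6538, 5397 and 6241 TPM. Replicates 06, 07, 13, 14 and 20, dosed at 300 mg/kg/d, held 8564, 4488, 11270, 6132 and 5691 CPM, and these 5 spread on both sides of the vehicle range. Group means were 7427 ± 714 (SD, n = 3) in vehicle, 5673 ± 1931 (n = 3) at 1, 4977 ± 2674 (n = 3) at 11, 10451 ± 2066 (n = 3) at 100 and 7229 ± 2702 CPM (n = 5) at 300 mg/kg/d.

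Ahsp (ENSRNOG00000020165; chromosome 1, 182880076 to 182885506, plus strand) encodes a chaperone that holds free alpha globin until it pairs with beta globin. Vehicle libraries held 13.4, 13.9 and 10.8 CPM, those at 1 mg/kg/d 8.41, 11.9 and 8.52, and those at 11 mg/kg/d 9.26, 9.49 and 3.77. All 3 libraries at 11 mg/kg/d lay below the vehicle range. At 100 mg/kg/d Ahsp was at 15.7, 23.3 and 13.5 CPM, and at 300 mg/kg/d at 13.6, 7.71, 18.8, 10.1 and 11.5 CPM. Replicate 19 at 100 mg/kg/d, high for the other members, was inside the vehicle range for this one. The gene shares 118 exon bases with Rusf1 on the opposite strand, and the library kit does not mark strand, so part of its count may belong to that gene.

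Alas2 (ENSRNOG00000000167; chromosome X, 19463171 to 19486519, plus strand) encodes the erythroid ALA synthase, the first enzyme of heme synthesis in red cell precursors. It stood at 149.6, 99.2 and 133 CPM in vehicle, 84.5, 126 and 109 CPM at 1 mg/kg/d and 103, 104 and 62.8 CPM at 11 mg/kg/d. The 100 mg/kg/d libraries held 143, 171 and 184 CPM, and those at 300 mg/kg/d 139.8, 76.9, 137, 81.4 and 96.6 CPM. The lowest of the high-dose values lay within the vehicle range at 100 mg/kg/d and below it at 300 mg/kg/d. Group means were 127 ± 25.7 CPM (SD, n = 3) in vehicle, 166 ± 20.9 (n = 3) at 100 mg/kg/d and 106 ± 30.3 (n = 5) at 300 mg/kg/d.

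Slc4a1 (ENSRNOG00000020951; chromosome 10, 87306872 to 87323117, minus strand) encodes band 3, the anion exchanger of the red cell membrane. It varied most among the members between libraries of the same dose. Vehicle libraries held 52.5, 36.05 and 30.6 CPM, those at 1 mg/kg/d 20.6, 57.5 and 32.4, and those at 11 mg/kg/d 28.2, 48.4 and 9.05. At 100 mg/kg/d it was at 37.2, 68.5 and 73.3 CPM, and at 300 mg/kg/d at 54.8, 25.2, 76.5, 27.4 and 37.3 CPM. Each dosed group overlapped the vehicle range. Epb42 (ENSRNOG00000011649; chromosome 3, 107979713 to 107997932, minus strand) encodes protein 4.2, which ties band 3 to the membrane skeleton. Its counts were low, 22 to 84 per library, with 2.66, 1.90 and 1.98 CPM in vehicle and 2.28, 4.32 and 4.65 CPM at 100 mg/kg/d. At 300 mg/kg/d 4 of 5 libraries, at 2.78, 3.38, 3.68 and 3.26 CPM, were above the vehicle range and replicate 14, at 1.67 CPM, was below it.

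Hemgn (ENSRNOG00000009436; chromosome 5, 60679633 to 60698669, minus strand) encodes hemogen, a nuclear protein of blood cell precursors. It stood at 7.97, 9.43 and 6.38 CPM in vehicle and at 4.24, 6.83 and 6.23 CPM at 1 mg/kg/d, where replicate 02 was the lowest of the 17. The 100 mg/kg/d libraries held 8.31, 11.5 and 9.76 CPM, overlapping vehicle. Klf1 (ENSRNOG00000003443; chromosome 19, 23250631 to 23253758, minus strand) encodes the erythroid transcription factor that drives adult beta globin, with 24 to 77 counts per library. Vehicle libraries held 3.29, 1.34 and 2.35 CPM and those at 100 mg/kg/d 3.45, 3.96 and 5.05 CPM, without overlap in CPM. Per length they overlapped, with 3.40 TPM in replicate 05 at 100 mg/kg/d and 4.13 TPM in vehicle replicate 01. At 300 mg/kg/d Klf1 was at 2.42, 1.97, 3.98, 2.88 and 2.36 CPM, within the vehicle range but for replicate 13.

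No red blood cell gene passed the test in any dose comparison. Each dose was compared with vehicle by edgeR's quasi-likelihood test over 18005 genes, calling a gene at a Benjamini-Hochberg adjusted p under 0.05, and DESeq2 also called 0 members. At 1 mg/kg/d, where 0% of all genes were called, 0 members had an unadjusted p under 0.05, against 4.95% of all genes. Log2 fold changes ran from -0.46 (SE 0.27, Hemgn) to 0.27 (SE 0.36, Klf1), and the lowest adjusted p of the members was 0.864. No member stood wholly above or below the vehicle libraries there, against 6.48% and 7.65% of all genes. At 11 mg/kg/d, where again 0% of all genes were called, Ahsp (-0.76, SE 0.32) and Alas2 (-0.50, SE 0.23) had an unadjusted p under 0.05, as had 3.52% of all genes. Their adjusted p was 0.992 in both cases. Ahsp was the 1 member of 7 wholly below vehicle, where 6.9% of all genes were, and 0 members were wholly above it, where 5.28% were.

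At 100 mg/kg/d 1.52% of all genes were called, 0.494% higher and 1.03% lower, and again 0 members. The log2 fold change of Klf1 was 0.84 (SE 0.35; edgeR, adjusted p = 0.200), a 1.79-fold difference with a 95% interval of 1.08 to 2.96. That of Epb42 was 0.79 (SE 0.33, adjusted p = 0.207, edgeR), and these were the 2 members with an unadjusted p under 0.05, a level reached by 19.2% of all genes. The other members lay between 0.32 (Hemgn) and 0.59 (Slc4a1), and for Hba-a2 the fold was 1.41 with an interval of 0.840 to 2.36. In CPM, Hba-a2 and Klf1 were the 2 members of 7 wholly above vehicle, against 7.14% of all genes, and 0 were wholly below it, against 7.9%. In TPM, neither stood wholly above it: replicate 05 held 5367 for Hba-a2 and 3.40 for Klf1, below vehicle replicate 01 at 6538 and 4.13. Without replicates 05 and 18, which leaves replicate 19 alone at this dose, the log2 difference was 1.11 for Klf1, 1.08 for Epb42, 0.59 for Hba-a2 and 0.07 for Ahsp, and no member was called.

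At 300 mg/kg/d 2.4% of all genes were called, 0.994% higher and 1.41% lower, with 0 members called and 0 with an unadjusted p under 0.05, against 13.3% of all genes. Values ran from -0.26 (SE 0.20, Alas2) to 0.44 (SE 0.30, Epb42; adjusted p = 0.589, edgeR). The interval of the fold for Hba-a2 was 0.615 to 1.54 and that for Alas2 0.622 to 1.12. These libraries thus leave room for changes of that size in either direction for Hba-a2, and mainly for a fall for Alas2. No member stood wholly above or below vehicle, against 5.81% and 6.49% of all genes. The slope on log2(dose + 1), for which 5.72% of all genes were called, 2.74% higher and 2.98% lower, had 0 members called, and its value was above 0 for all 7. Epb42 had the largest, 0.08 per unit (SE 0.03, adjusted p = 0.181, edgeR), and was the 1 member with an unadjusted p under 0.05, against 19.1% of all genes.

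**Figure D2:**
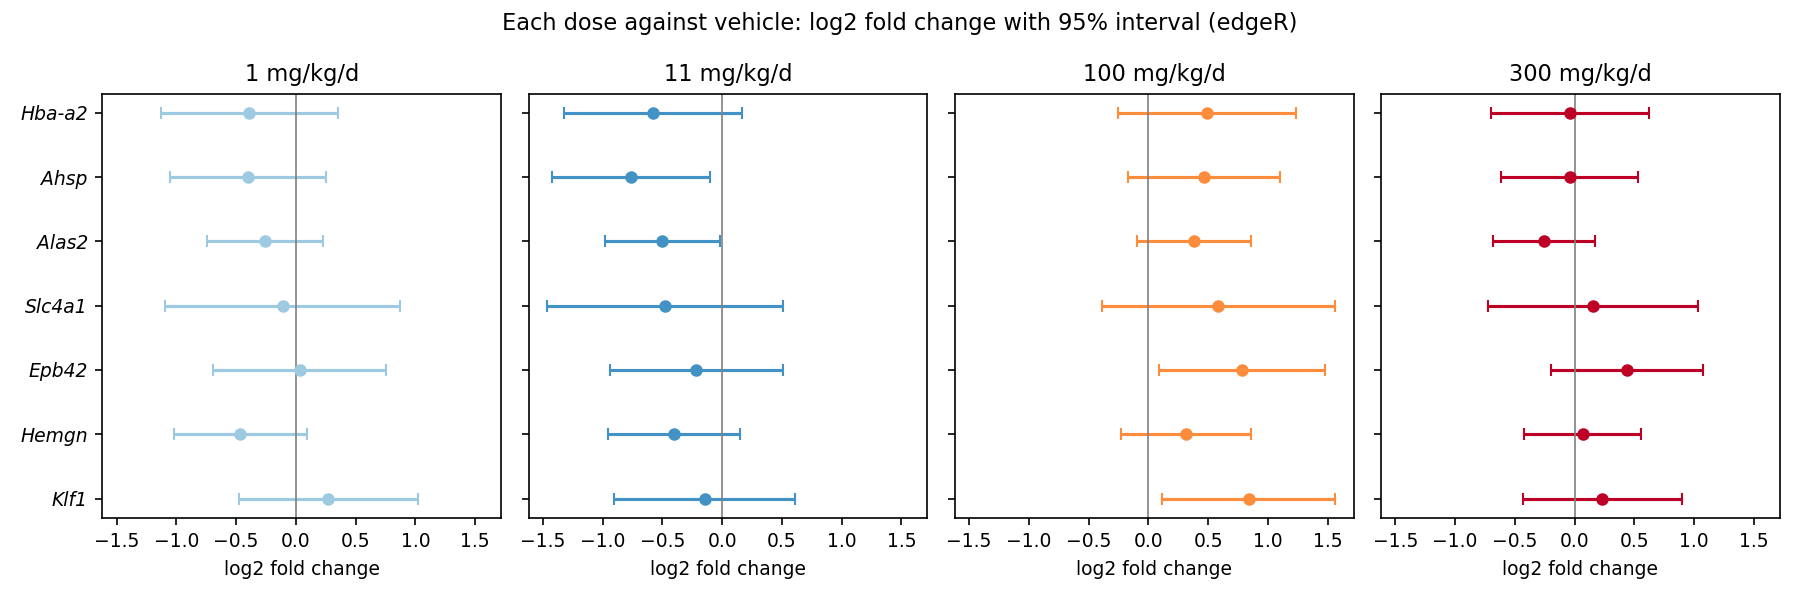
Log2 fold change of each red blood cell gene at 4 doses against vehicle, with its 95% interval (points and bars; edgeR, 17 libraries). All 7 points lie below 0 at 11 mg/kg/d and above 0 at 100 mg/kg/d, with most intervals crossing 0.

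The median log2 fold change of the 7 members was -0.26 at 1 mg/kg/d, -0.48 at 11, 0.49 at 100 and 0.07 at 300 mg/kg/d. The same median over all 18005 genes was 0.01, 0.01, 0.05 and 0.01. At 11 mg/kg/d all 7 values were below 0 and at 100 mg/kg/d all 7 above 0, and the 4 comparisons share their 3 vehicle libraries. Averaged over the members as log2 CPM minus each gene's own mean, the groups stood in the order 11, 1, vehicle, 300 and 100 mg/kg/d. Their means were -0.50 ± 0.66 (SD, n = 3), -0.18 ± 0.40 (n = 3), 0.02 ± 0.21 (n = 3), 0.06 ± 0.40 (n = 5) and 0.56 ± 0.30 (n = 3). Among the first 4 groups neighbours differed by less than the larger of their SDs, and the order does not follow the dose. The 11 mg/kg/d value rests on 1 library: its difference from vehicle was -0.52 with and -0.15 without replicate 17. Likewise, the 1 mg/kg/d difference was -0.21, and -0.01 without replicate 02, -0.41 without replicate 09 and -0.09 without vehicle replicate 01, while that at 100 mg/kg/d stayed between 0.44 and 0.71 when any 1 library was left out.

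Single libraries stood apart across most or all members. In replicate 17 at 11 mg/kg/d all 7 were among their 3 lowest values and 5 were at their lowest, with a mean of -1.25 relative to each gene's own average. Replicate 02 at 1 mg/kg/d had 5 among their 3 lowest values, with a mean of -0.57, and replicate 07 at 300 mg/kg/d had 4. In replicate 18 at 100 mg/kg/d all 7 were among their 3 highest values, and replicates 19 at 100 mg/kg/d and 13 at 300 mg/kg/d had 5 and 6 there. These 3 libraries averaged 0.76, 0.70 and 0.65. Replicate 13 was thus close to replicates 18 and 19 of the lower dose, while replicates 07 and 14 of its own dose averaged -0.33 and -0.24. Replicate 05, the third library at 100 mg/kg/d, averaged 0.22, below vehicle replicate 01 at 0.27.

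The spread within dose groups was large for these genes. The SD within groups on the log2 scale was 0.75 for Slc4a1 (percentile 96.9 of all genes tested), 0.56 for Hba-a2 (90.1), 0.46 for Ahsp (83.9), 0.46 for Klf1 (83.4), 0.43 for Epb42 (81.3), 0.35 for Hemgn (73.9) and 0.35 for Alas2 (72.8). The median gene had 0.23. The share of each member's sum of squares that lay between dose groups ran from 28.2% (Slc4a1) to 51.8% (Ahsp), beside 35.5% for the median gene.

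**Figure D3:**
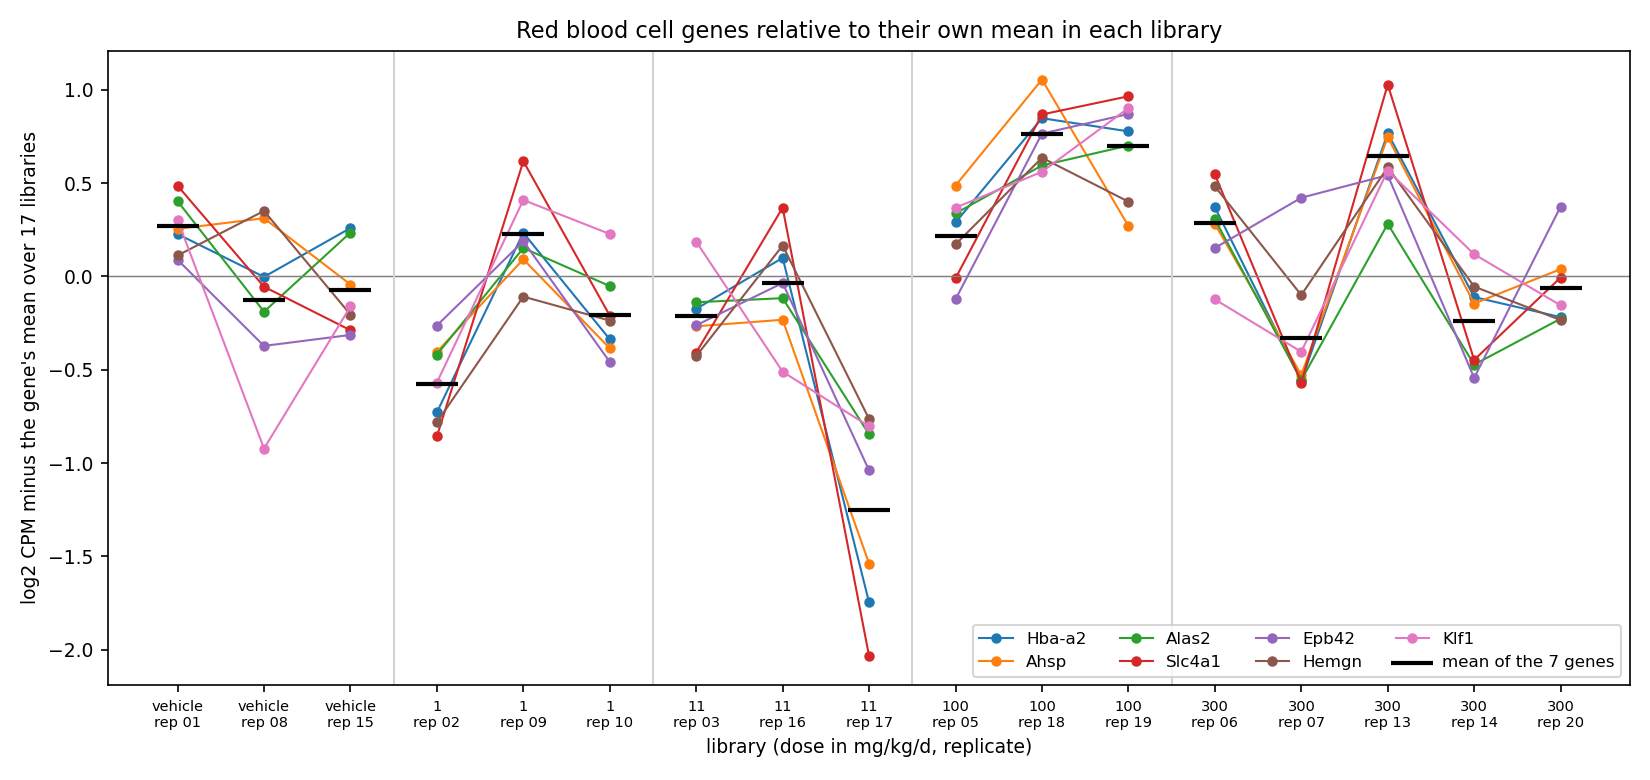
Log2 CPM of each red blood cell gene minus its own mean over 17 libraries (vertical axis), by library and grouped by dose (horizontal axis); the black bar is the mean of the 7 genes. The means run from -1.25 in 11 mg/kg/d replicate 17 to 0.76 in 100 mg/kg/d replicate 18.

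Across the 17 libraries the members varied together. Of their 21 pairs, 20 had a Pearson correlation of log2 CPM past a Benjamini-Hochberg adjusted permutation p of 0.05, and 19 by Spearman's rho, over 28 relations computed. The permutations, here and for the correlations below, moved libraries freely between dose groups. Differences between doses that genes share therefore enter both r and p, and r within doses was not computed. Pearson's r had a median of 0.76 and ran from 0.47 to 0.95. Slc4a1 with Hba-a2 had the highest r, 0.95 (rho 0.85, permutation p = 1e-05, the smallest that 100000 resamples can give, and 5e-05; adjusted 3.5e-05 and 0.000233), and r was 0.88 without the 2 libraries farthest from the median. Hemgn with Klf1 had the lowest, 0.47 (rho 0.48; permutation p = 0.0553 and 0.0541; adjusted 0.0673 and 0.0658), and 0.21 without 2 libraries. By Pearson's r, leaving out the 2 farthest libraries of each pair kept 15 of the 21 past the threshold with a median of 0.62. Leaving out replicate 17 at 11 mg/kg/d kept 18 with a median of 0.70, and leaving out replicates 05 and 18 at 100 mg/kg/d kept 20 with a median of 0.72. By Spearman's rho the same settings kept 13, 14 and 14 pairs.

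The sample titles carry 1 of 3 number codes, whose meaning was not stated. Within the code with 8 libraries the median r of the 21 pairs was 0.87, and within the code with 7 libraries it was 0.80. The remaining code holds 2 libraries, too few for a value. Against vehicle of the same code, all 7 members were higher at 100 mg/kg/d in the code of 8 (median 0.49 on the log2 scale) and in the code of 7 (0.52). At 11 mg/kg/d 0 of 7 were higher in the code of 8 (-0.73) and 1 of 7 in the code of 7 (-0.13), and at 1 mg/kg/d the counts were 5 and 0 of 7, with 2 of 7 in the code of 2. At 300 mg/kg/d 5 of 7 were higher in the code of 8 (0.24) and all 7 lower in the code of 7 (-0.21). Each code has 1 vehicle library, so the values within a code are given without a test, and with the code as a factor in the fit of all libraries 0 members were called in any comparison.

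The ratio of the globin chains varied less than their level. Hba-a2 ranged 6.04-fold between the lowest and the highest library and Hbb-b1 8.83-fold, yet the count of Hba-a2 was 3.21 ± 0.38 times that of Hbb-b1 (SD, n = 17; 2.56 to 3.74). It was 2.97 to 3.15 in vehicle and 3.41 to 3.74 at 11 mg/kg/d, without overlap and with no test made, and at 100 mg/kg/d 2.56 in replicates 05 and 18 and 3.68 in replicate 19. Their correlation was r = 0.97 (rho 0.97; permutation p = 1e-05 for each; adjusted 3.5e-05 and 9.33e-05), 0.93 without the 2 farthest libraries and 0.98 within either of the larger codes. The Hbb-b1 model spans 131813 bases and covers 95.1% of the 471 exon bases of Hbb-bs on the opposite strand, so the division of beta globin reads is uncertain too. Ratios to the membrane and heme genes were looser. Hba-a2 counts were 59.7 ± 11.6 times those of Alas2 (SD, n = 17; 31.4 to 82.0) and 180 ± 34.9 times those of Slc4a1 (135 to 259). The lowest ratio to Alas2 was in replicate 17 at 11 mg/kg/d, where Slc4a1 (-2.03), Hba-a2 (-1.75) and Ahsp (-1.54) lay further below their own mean than Epb42 (-1.04), Alas2 (-0.85), Klf1 (-0.80) and Hemgn (-0.76).

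**Figure D4:**
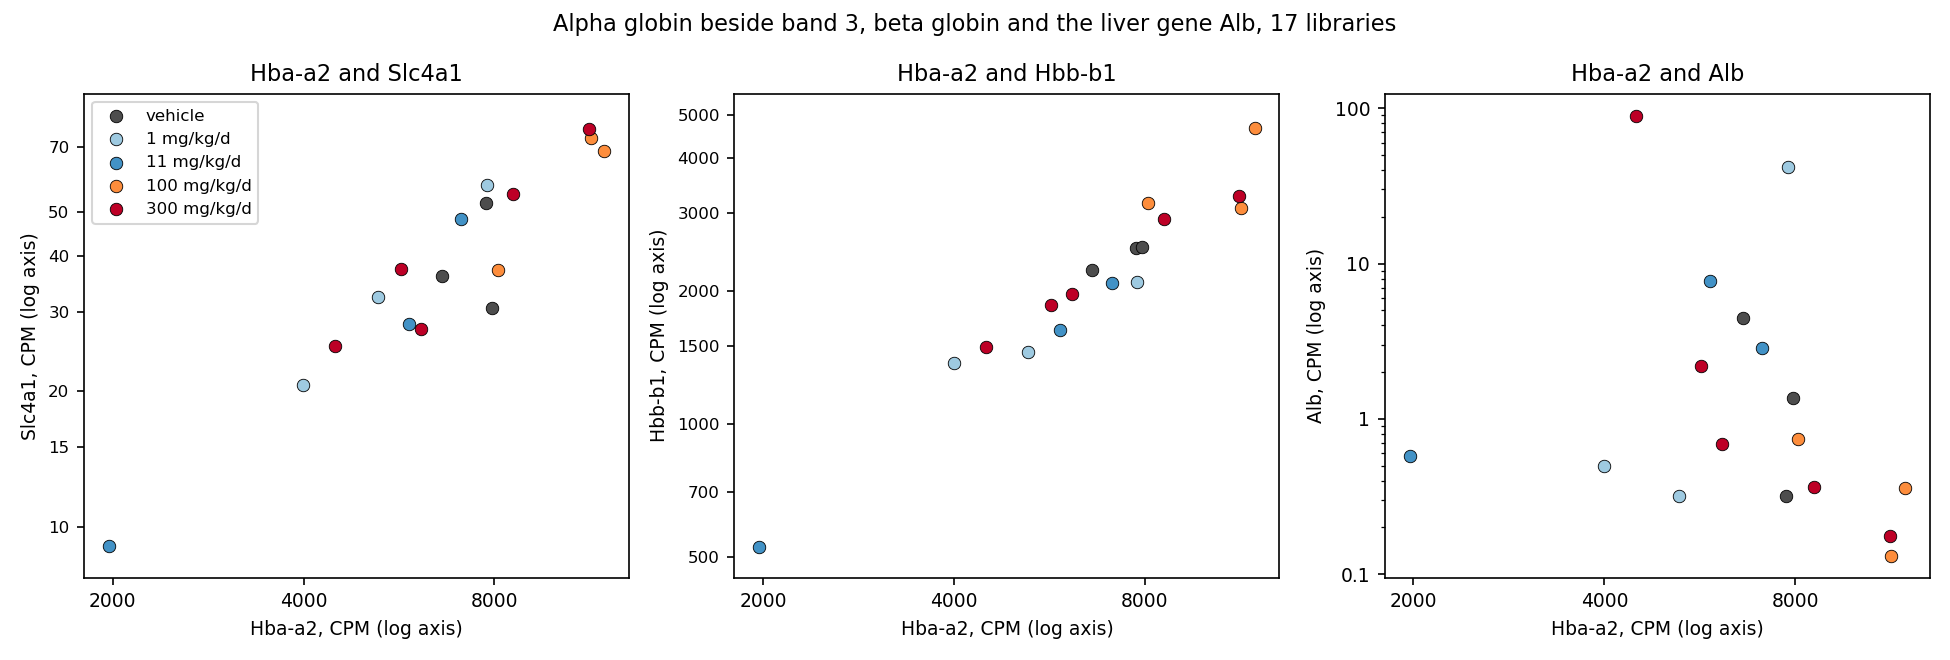
Hba-a2 (horizontal, CPM, log axis) against Slc4a1, Hbb-b1 and Alb (vertical, CPM, log axes) in 17 libraries, coloured by dose. Slc4a1 and Hbb-b1 climb with Hba-a2 (r = 0.95 and 0.97), whereas Alb is high in 2 libraries that are not high in Hba-a2.

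The genes most like the members were sought among 14469 other genes with a mean of at least 1 CPM, by Pearson's r over 17 libraries with the mean of the members. As they were picked for this likeness, their r is a description. Among the 10 highest were Cdc25b, a phosphatase that starts mitosis (0.96), Hbb-b1 (0.94), Car2, carbonic anhydrase (0.94), Ybx3, an RNA-binding Y-box protein (0.94), Cd52, a small surface glycoprotein (0.91), Kel, the Kell blood group protein (0.85), Rsad2, an interferon-induced protein (0.84), Nfe2, a transcription factor (0.84), and Hbb-bs (0.82). All of these were at their lowest in replicate 17 at 11 mg/kg/d. Without that library their r was 0.93 for Cdc25b, 0.92 for Ybx3 and 0.68 for Hbb-bs, with the others named between 0.73 and 0.90. Ybx3 ran from 137 to 284 CPM and Cdc25b from 75.3 to 139.5 CPM, narrow ranges beside the 6.04-fold range of Hba-a2. Only 12 of the ranked genes reached 0.8. The 3 lowest of the 14469 were Dnaaf3 (-0.84), B4galnt2 (-0.78) and Atp11b (-0.76), which were at their highest in that same library.

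Other globin genes were mixed in their likeness to the members. Of 6 tested, 0 were called at any dose, 0 of 6 were above 0 at 1 and 11 mg/kg/d, 6 of 6 at 100 and 4 of 6 at 300 mg/kg/d, with medians of -0.56, -0.59, 0.70 and 0.07 on the log2 scale. Hbb-b1 was at 2503, 2229 and 2513 CPM in vehicle and at 3155, 4659 and 3081 CPM at 100 mg/kg/d, above every vehicle library in CPM. In TPM, replicate 05 of that dose (1680) lay below vehicle replicate 01 (1695). The log2 difference of Hbb-b1 at 100 mg/kg/d was 0.59 (SE 0.34, adjusted p = 0.354, edgeR). Hba-a3 had 53.9 ± 20.7 CPM over the 17 libraries (SD). The embryonic chain genes were rare. Hbe1 was at 16.3 CPM in replicate 18 at 100 mg/kg/d and at 0.889 to 6.87 CPM in the other 16, and Hbz ran from 1.88 to 7.08 CPM. Over the 17 libraries r with the mean of the members was 0.75 for Hbe1, 0.69 for Hba-a3 and 0.17 for Hbz, and without replicate 17 at 11 mg/kg/d it was 0.64, 0.46 and -0.02.

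The 16 heme synthesis genes had median log2 fold changes of -0.05, -0.11, 0.02 and -0.04 in order of dose, and their 1 called gene is not specific to red cells. Of the 16, 0 were called at 1 or 11 mg/kg/d, and Alas1 alone fell at 100 and 300 mg/kg/d. Alas1 encodes the housekeeping ALA synthase that feeds heme to cytochrome P450 enzymes. Its level was 167, 206 and 251 CPM in vehicle, 90.0, 75.4 and 119 CPM at 100 mg/kg/d and 87.7, 87.2, 94.1, 119 and 71.4 CPM at 300 mg/kg/d. Every library of both doses lay below every vehicle library. Its log2 fold change was -1.13 at 100 mg/kg/d (SE 0.19; edgeR, adjusted p = 0.00250) and -1.18 at 300 mg/kg/d (SE 0.16; edgeR, adjusted p = 0.000163), a fold of 0.441 in the second case. At 100 mg/kg/d it was -0.82 without replicates 05 and 18 (adjusted p = 0.141, edgeR), with 1 library left, and the adjusted p was 0.0574 when only the compared groups were fitted. At 300 mg/kg/d the call held in all 18 alternatives. Alas2, its erythroid counterpart, differed by 0.38 (SE 0.23) and -0.26 (SE 0.20) in the same comparisons. The slope of Alas1 on log2(dose + 1) was -0.15 per unit (edgeR, adjusted p = 2.95e-05), a call kept in all 26 alternatives. The 2 next most abundant genes of the list were Slc25a39, a mitochondrial carrier (81.2 CPM over all libraries), and Glrx5, an iron-sulfur cluster protein (66.8 CPM), neither of them called. Over the 17 libraries r with the mean of the members was 0.80 for Slc25a39, 0.63 for Fech, which inserts the iron into heme, 0.50 for Glrx5 and -0.47 for Alas1, so the list was mixed.

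**Figure D5:**
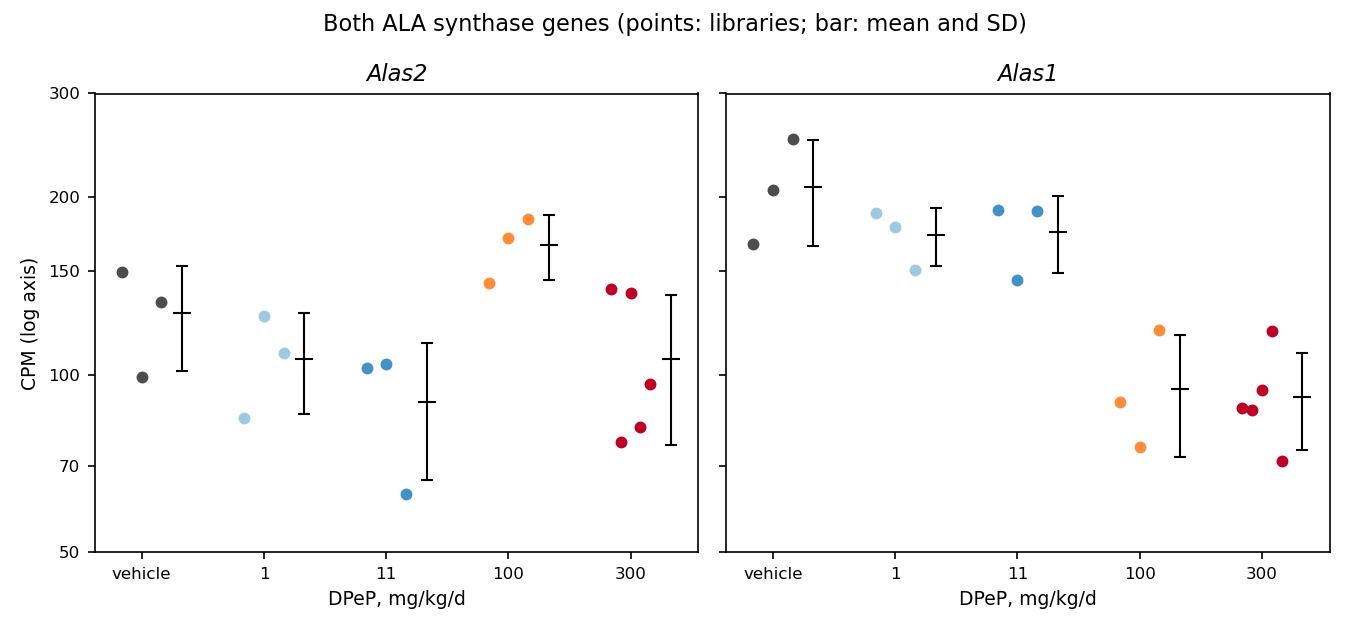
CPM (log axis) of Alas2, the erythroid ALA synthase, and Alas1, the housekeeping one, by DPeP dose; points are libraries, the bar beside them the group mean with its SD. Alas1 lies between 71.4 and 119 CPM in all 8 libraries at 100 and 300 mg/kg/d and between 145 and 251 CPM in the other 9, and Alas2 shows no such step.

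Of 17 other membrane and skeleton genes tested, 0 were called at any dose, and their median log2 fold change was 0.23 at 100 mg/kg/d with 12 of 17 above 0. The most abundant were Slc2a1, a glucose transporter (71.9 CPM over all libraries), Epb41, protein 4.1 (56.3 CPM), and Sptb, beta spectrin (48.6 CPM), which testis cells can express as well. Of 13 erythroid transcription factor genes 1 was called, Lmo2, a bridging protein of blood and endothelial cells. It fell from 28.2 ± 2.34 CPM (SD, n = 3) in vehicle to 19.1 ± 1.08 CPM (n = 5) at 300 mg/kg/d, a log2 fold change of -0.57 (SE 0.12; edgeR, adjusted p = 0.00923). The adjusted p was 0.0501 without vehicle replicate 01 and 0.0752 without vehicle replicate 15. The slope of Lmo2 on log2(dose + 1) was -0.06 per unit (edgeR, adjusted p = 0.00629), a call kept in all 26 alternatives. The factors with the highest level were Ldb1 (149 CPM), Zfpm1 (108 CPM) and Mybl2 (44.5 CPM), all uncalled. Of 22 maturation and enzyme genes 0 were called, the most abundant being Bnip3l (246 CPM), Prdx2 (232 CPM) and Ube2o (139 CPM).

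Markers of other blood cells were low beside the globins. The summed level of 11 megakaryocyte and platelet genes ran from 15.6 to 20.5 CPM in vehicle and from 15.6 to 18.8 CPM at 100 mg/kg/d, with Gp1bb at 0 in all 17 libraries, and Itga2b (4.53 CPM) and Treml1 (4.44 CPM) the most abundant. For 13 neutrophil and mast cell genes, led by S100a9 and Prg2, the sums were 14.6 to 19.4 and 16.6 to 29.6 CPM, and for 10 lymphocyte genes, led by Cd79a, 47.3 to 55.9 and 34.9 to 44.0 CPM. Cd79a, at 33.4 ± 5.91 CPM (SD, n = 3) in vehicle and 20.2 ± 5.54 CPM (n = 3) at 100 mg/kg/d, carries much of that sum, and the list by genes went the other way at this dose: 6 of 8 tested were above 0, with a median log2 fold change of 0.61. None of these lists had a called gene at any single dose. The 13 macrophage genes, led by Lyz2 and Mrc1, summed to 190 to 233 CPM in vehicle and 154 to 182 CPM at 300 mg/kg/d, where Tyrobp, a signalling adaptor, fell with a log2 fold change of -1.02 (SE 0.18; edgeR, adjusted p = 0.00294). Hba-a2 correlated with Csf1r at r = 0.35 (rho 0.09; permutation p = 0.172 and 0.746; adjusted 0.185 and 0.746; -0.17 without the 2 farthest libraries, 0.43 and 0.29 within the codes of 8 and 7) and with Pf4 at 0.37 (rho 0.28; permutation p = 0.148 and 0.272; adjusted 0.166 and 0.282; 0.04 without 2 libraries, 0.39 and 0.27 within the codes). The part of these cells in the red cell level was not tested.

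Of 12 endothelial genes, which mark the vessels that hold the blood, 10 had a log2 fold change below 0 at 100 mg/kg/d and 1 was called, with a median of -0.51. The 2 above 0 were Emcn, a sialomucin (0.33, SE 0.23), and Vwf, von Willebrand factor (0.03, SE 0.14). Emcn had its highest level of all 17 libraries, 39.7 CPM, in replicate 05 at that dose. The summed level of the 12 was 654 to 676 CPM in vehicle, 343 to 605 CPM at 100 and 540 to 610 CPM at 300 mg/kg/d. The most abundant, Cdh5, the cadherin of endothelial junctions, was at 214, 214 and 186 CPM in vehicle and at 80.7, 109 and 153 CPM at 100 mg/kg/d, below every vehicle library. It fell with a log2 fold change of -0.84 (SE 0.18; edgeR, adjusted p = 0.0238). That call was lost in 8 of 16 alternatives: the adjusted p was 0.0954 without vehicle replicate 01, 0.0717 without 08, 0.0562 without 15, 0.0802 without dosed replicate 05 and 0.115 without 18. Without 05 and 18 together the log2 fold change was -0.43 (adjusted p = 0.317, edgeR), and the adjusted p was 0.0834 with the sample code as a factor and 0.229 when only the compared groups were fitted. Eng, the second, was at 126 ± 10.8 CPM (SD, n = 3) in vehicle and 94.2 ± 37.8 CPM (n = 3) at 100 mg/kg/d. Across the 17 libraries Hba-a2 correlated with Cdh5 at r = -0.43 (rho -0.42; permutation p = 0.0867 and 0.0928; adjusted 0.101 and 0.108; -0.29 without 2 libraries, -0.41 and -0.50 within the codes). Its correlation with the mitochondrial share of counts was 0.30 (rho 0.35; permutation p = 0.217 and 0.174; adjusted 0.225 and 0.187; 0.28 without 2 libraries, 0.15 and 0.73 within the codes), and the part of either in the red cell level was not tested.

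Liver genes were examined because the fetal liver makes red cells. Alb, the albumin gene, was at 89.9 CPM in replicate 07 at 300 mg/kg/d and at 41.8 CPM in replicate 09 at 1 mg/kg/d, and at 0.131 to 7.75 CPM in the other 15 libraries. Afp, Fga and Fgb were also highest in these 2 libraries, at 34.7, 13.4 and 11.9 CPM in the first and 25.7, 4.67 and 6.27 CPM in the second. The members averaged -0.33 and 0.23 there. In the first library 4 of the 7 were among their 3 lowest values. In the second, 0 were among their 3 lowest or 3 highest. Hba-a2 and Alb correlated at r = -0.22 (rho -0.40; permutation p = 0.380 and 0.113; adjusted 0.380 and 0.126), and at -0.59 (adjusted permutation p = 0.0358) without the 2 libraries farthest from the median of Hba-a2. Within the codes r was -0.25 and -0.30. Leaving these libraries out moved the mean difference of the members from vehicle to 0.14 at 300 mg/kg/d without replicate 07 and to -0.41 at 1 mg/kg/d without replicate 09. The most abundant of the 17 liver genes were Tf, transferrin, which Sertoli cells also make, with 115 CPM over all libraries, and Rbp4 with 11.8 CPM, and 0 of the 12 tested were called at any single dose. On the slope over dose the lists of other blood cells, endothelium and liver also had called genes. These were, by edgeR, Cd79a (-0.08 per unit, adjusted p = 0.0360), Tyrobp (-0.11, adjusted p = 0.00251), Tek (-0.05, adjusted p = 0.0443) and the liver gene Vtn (-0.12, adjusted p = 0.00559). The calls of Tyrobp and Vtn held in all 26 alternatives, and those of Cd79a and Tek were lost in 11 and 15 of them, most of these with 1 library left out.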

How the data were processed

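The submitters' processing notes name Trimmomatic 0.36, STAR 2.5.2b, featureCounts, Subread 1.5.2, DESeq2 and limma, and the genome build mRatBN7.2. The deposited files hold raw read counts per gene with coordinates and summed exon length, per the file headers; no source used here gives the strand setting. The 92 spike-in rows were left out of library sizes and tests.

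From these counts, CPM on TMM-scaled library sizes, log2 CPM (prior count 2) and TPM were computed. The tests were fitted in R 4.3.3 on all 17 libraries with edgeR 4.0.16 (filterByExpr by dose group, quasi-likelihood, adjusted p under 0.05 over 18005 genes) and checked on simulated counts. DESeq2 1.42.0, other scalings and filters, the sample code as a factor and leaving out libraries were alternatives. Correlations used 100000 permutations, two-sided (scipy 1.17.1). Shown are all members; from each pathway list the 3 genes, and from each marker list the 2, with the highest mean, plus called ones; and the 10 most and 3 least similar genes, except items that are not reported here. The members and lists were chosen with earlier results of these data known. Other genes named (Hbz, Afp, Fga, Fgb, Csf1r, Pf4, Alb, Gata1) were chosen after their values were seen.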

Additional observations from a re-analysis of the deposited data

Results flagged for a closer look

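Of 56 named genes, 6 had a library at 300 mg/kg/d (n = 5) whose gap to the nearest other library took most of the range of its group; chance gives such a gap in about 1 in 20 groups. In replicate 07 Alb stood at 89.9 CPM and Afp at 34.7 CPM, far above the other 4 libraries, and Gata1, an erythroid transcription factor gene, was at 2.36 CPM, below them. In replicate 13, which was high in red blood cell genes, Hbb-bs stood at 5.09 CPM and Cd79a, a B cell gene, at 38.6 CPM, both above the others. In replicate 20 S100a9, a neutrophil gene, was at 2.19 CPM, below the others. None of the 7 red blood cell members had such a library.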

How the results depend on the processing

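No paired analysis was possible because the groups share no replicate numbers; the sample code, which is shared between doses, was fitted as a factor instead. No member was called in any of 92 alternative fits. The mean difference of the members from vehicle was -0.41 to -0.01 at 1 mg/kg/d, -0.76 to -0.15 at 11, 0.42 to 0.71 at 100 and -0.11 to 0.16 at 300 mg/kg/d over the alternatives, 1 of which (without Hba-a2) was added after seeing the data, as was leaving replicate 17 out of the correlations. Over all genes, the 0 calls at 1 mg/kg/d became at most 3 and the 0 at 11 mg/kg/d at most 26 (DESeq2). The 274 calls at 100 mg/kg/d became 904 with DESeq2, 45 when only the compared groups were fitted, 73 without replicates 05 and 18, and 93 to 4250 with 1 library left out (4250 without replicate 19; 94 and 99 without vehicle replicates 01 and 15; 162 and 93 without replicates 05 and 18). The 432 at 300 mg/kg/d became 746 with DESeq2, 835 with the compared groups only, 869 without replicates 05 and 18, 270 with the sample code and 212 to 432 with 1 library left out, and the 1030 of the slope became 586 with the code and 1711 without replicates 05 and 18. The calls of Alas1 and Tyrobp at 300 mg/kg/d held in all 18 alternatives; the calls lost for Alas1 at 100, Lmo2 at 300 and Cdh5 at 100 mg/kg/d stand in the report. Causes were not tested. Klf1 and Epb42 had 22 to 84 counts per library, so counting error adds to the spread of both.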
